A study of Mus musculus with 6 samples.

Results

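The 6 predicted or noncoding transcripts described here come from dorsal root ganglia of mice in which Kif2a is targeted in sensory neurons. They are Gm40518, Gm1976, Gm266, A230087F16Rik, AC160966.1 and Gm12892, and all 6 were taken by symbol from a deposited table of 22087 genes. They were chosen by their levels in these 6 libraries, which do not overlap between the 2 groups, so the difference between the groups is given for them as a description and carries no test. All 6 passed the filter on low counts, which kept 17759 genes. Gm40518, Gm266, A230087F16Rik and AC160966.1 passed it only through their control libraries, since each of their cKO counts was below the minimum count of 10. Dorsal root ganglia hold the cell bodies of the sensory neurons that serve the body, and these came from mice of 3 months of age. The conditional knockout (Kif2a fl/fl; Avil Cre, here cKO, 3 libraries) carries 2 floxed Kif2a alleles together with Cre from the Avil gene, the gene of the actin-binding protein advillin, which is active in sensory neurons. The control (Kif2a fl/fl, 3 libraries, titled WT by the submitters) carries the same floxed alleles without Cre, so floxed Kif2a is shared by both groups. Cells of the ganglion without advillin are not targeted by this Cre. The labels do not state that replicates are different animals, so p-values describe only how far these samples spread, and that spread may be technical. The series asks what Kif2a, a kinesin that shortens microtubules, does in pain sensation.

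Names such as Gm followed by a number are placeholders for predicted mouse genes, and names ending in Rik come from a collection of sequenced cDNA clones. Long noncoding RNAs are transcribed and often spliced and polyadenylated like messenger RNAs but carry no long open reading frame, and for most of them no role is known. A processed pseudogene is a copy of a messenger RNA that was written back into the genome, so it lacks introns and can resemble its parent gene closely enough to share sequencing reads with it. No role in sensory ganglia is stated here for any of the 6 transcripts.

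Gene models were taken from GENCODE release M21 on GRCm38, the mm10 build. Gm40518 (ENSMUSG00000110924.1) is a long intergenic noncoding RNA on the minus strand of chromosome 9, from 48132504 to 48158965, with 2 annotated transcripts. AC160966.1 (ENSMUSG00000111511.1) is a spliced noncoding transcript on the minus strand of the same chromosome, from 41803165 to 41876268, with 4 annotated transcripts. Gm266 (ENSMUSG00000010529.6) is a predicted protein-coding gene of 1 exon on the minus strand of chromosome 12, from 111484609 to 111485823. A230087F16Rik (ENSMUSG00000097381.2) is an antisense RNA on the plus strand of chromosome 12, from 111284762 to 111293988. Gm1976 (ENSMUSG00000066057.7) is a noncoding transcript on the minus strand of chromosome 17, from 94759944 to 94834799, with 4 annotated transcripts. Gm12892 (ENSMUSG00000083679.1) is a processed pseudogene of 1 exon on the plus strand of chromosome 4, from 122008193 to 122009338.

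RefSeq promoter windows run from 250 bases before to 50 bases after the start of the gene in RefSeq. They were found for only 3 of the 6 transcripts, and these 3, all lower in the cKO, are shown. No window was found for A230087F16Rik and AC160966.1, which are also lower in the cKO, or for Gm12892. Capitals mark matches, on either strand, to 4 short motifs. TATAAA is the core letters of the box bound by the TATA-binding protein. CCAAT is bound by nuclear factor Y. GGGCGG is the GC box of Sp factors. TGACGT is the core of the cyclic AMP response element. All are on the minus strand of GRCm38.p6, at chr9:48158699-48158998 for Gm40518, chr17:94834750-94835049 for Gm1976 and chr12:111485774-111486073 for Gm266. For Gm1976 and Gm266 the RefSeq start is that of the GENCODE model. For Gm40518 it lies 217 bases inside the GENCODE model, so only 33 bases of that window come before the GENCODE start.
Gm40518: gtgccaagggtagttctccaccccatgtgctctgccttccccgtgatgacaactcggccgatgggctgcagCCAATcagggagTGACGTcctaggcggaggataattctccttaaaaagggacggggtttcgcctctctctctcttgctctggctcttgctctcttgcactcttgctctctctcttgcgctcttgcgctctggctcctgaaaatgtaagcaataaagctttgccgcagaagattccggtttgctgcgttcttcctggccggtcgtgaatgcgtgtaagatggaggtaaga
Gm1976: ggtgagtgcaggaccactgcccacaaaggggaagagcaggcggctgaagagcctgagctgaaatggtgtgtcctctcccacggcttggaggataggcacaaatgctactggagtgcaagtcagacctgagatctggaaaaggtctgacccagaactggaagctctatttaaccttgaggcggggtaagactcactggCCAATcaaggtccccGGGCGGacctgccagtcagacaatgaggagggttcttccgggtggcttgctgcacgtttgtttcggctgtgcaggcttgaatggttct
Gm266: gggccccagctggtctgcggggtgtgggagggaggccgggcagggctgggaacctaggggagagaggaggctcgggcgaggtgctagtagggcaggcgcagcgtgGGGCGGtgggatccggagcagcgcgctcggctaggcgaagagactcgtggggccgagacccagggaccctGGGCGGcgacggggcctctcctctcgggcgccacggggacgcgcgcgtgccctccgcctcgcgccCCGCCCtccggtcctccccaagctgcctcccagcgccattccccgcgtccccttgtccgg

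The window of Gm266 holds 76.0% G and C, more than 96.9% of 32851 RefSeq promoter windows, and has 3 GC boxes. The windows of Gm40518 and Gm1976 hold 54.3% and 56.0%, close to the median of 52.7%. Each of these has 1 CCAAT box, which 37.4% of all windows have, Gm1976 has 1 GC box, which 35.7% have, and Gm40518 has 1 TGACGT, which 7.51% have. None of the 3 windows has TATAAA, which 13.6% have. The letters of the Gm40518 window recur elsewhere: 14 other genes of 27025 have a promoter window at least 80% identical to it over at least 150 bases, against 3 for Gm1976 and 0 for Gm266. Of those 14 genes only 4930481A15Rik and AA388235 had enough counts to be tested, and their groups overlapped. In 4930481A15Rik the levels were 0.00, 0.00 and 0.685 CPM (counts scaled by library size) in cKO replicates 1 to 3 and 0.0912, 1.23 and 0.485 CPM in control replicates 1 to 3, and its edgeR adjusted p was 0.9999. AA388235 averaged 0.915 ± 0.255 CPM in the cKO and 1.40 ± 0.692 CPM in control (SD, n = 3 each; edgeR adjusted p 0.9999).

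The 6 libraries hold between 21683083 and 31626625 counts. Libraries of one group correlate at 0.965 to 0.988 in log2 CPM, with a chi-square of 15.5 to 82.1 per degree of freedom between pairs, so none agree within sampling noise. Markers of sensory ganglia were expressed in every library, with Prph, the peripherin of peripheral neurons, at 1283 ± 147 CPM in the cKO and 1481 ± 145 CPM in control (SD, n = 3 each). Kif2a was at 69.8, 66.5 and 67.4 CPM in the cKO libraries and at 86.4, 80.4 and 90.0 CPM in control, which is the direction of the labels, but its edgeR adjusted p was 0.9999. Avil was at 49.2% of control (edgeR adjusted p 0.444, 6.91e-05 with DESeq2 and 0.0244 in edgeR without cKO replicate 2).

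Gm40518 was close to absent in the cKO. It had 0, 0 and 1 counts in cKO replicates 1 to 3, against 138, 235 and 284 counts in control replicates 1 to 3. Those counts are 0.00, 0.00 and 0.0428 CPM in the cKO and 6.29, 10.3 and 9.18 CPM in control. The groups are far apart, with the highest cKO library at 1 count and the lowest control library at 138 counts. A count of 0 allows up to 0.137 CPM in cKO replicate 1 and 0.124 CPM in cKO replicate 2, the value of 3 counts. Summed over libraries, the cKO level was 0.166% of control, with an exact 95% interval of 0.00420% to 0.928%. Such intervals cover counting error only, because they leave out the spread between libraries. Reads without molecular identifiers are also not independent molecules, so even the counting error may be understated. The fitted log2 fold change of -8.78 ± 0.55 (SE) hangs on the single cKO count, and was -10.71 without cKO replicate 3. With so few cKO counts this SE, taken from the F statistic, understates the uncertainty. In control the spread was wider than counting error, with a variance 11.2 times that of counting.

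Gm266 and A230087F16Rik, the pair on chromosome 12, were low in every cKO library. Gm266 had 7, 3 and 4 counts in the cKO libraries, against 61, 59 and 81 counts in control. Its levels were 0.321, 0.124 and 0.171 CPM in the cKO and 2.78, 2.59 and 2.62 CPM in control. The means were 0.205 ± 0.103 CPM in the cKO and 2.66 ± 0.103 CPM in control (SD, n = 3 each), a log2 fold change of -3.68 ± 0.37 (SE). The control libraries lie closer together than counting alone would place them on average, with a variance 0.0919 times that of counting. A230087F16Rik had 5, 4 and 5 counts in the cKO libraries, against 27, 33 and 41 counts in control. That is 0.203 ± 0.0333 CPM in the cKO and 1.34 ± 0.109 CPM in control (SD, n = 3 each), a log2 fold change of -2.69 ± 0.35 (SE). As shares of control over summed counts, Gm266 was at 7.60% (exact 95% interval 4.08% to 13.1%) and A230087F16Rik at 15.1% (7.98% to 26.6%). Within both groups the spread of A230087F16Rik was also below counting error, at 0.128 times in the cKO and 0.20 times in control.

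AC160966.1 had the lowest control level of the 6 transcripts, while in the cKO only Gm40518 was lower. It had 2, 1 and 0 counts in the cKO libraries, against 28, 12 and 22 counts in control. Its levels were 0.0917, 0.0414 and 0.00 CPM in the cKO and 1.28, 0.527 and 0.711 CPM in control. The groups do not overlap, although control replicate 1 is 2.42 times control replicate 2. Over summed counts the cKO was at 5.28% of control, with an exact 95% interval of 1.06% to 16.2%. The fitted log2 fold change of -4.11 ± 0.72 (SE) was -4.99 without cKO replicate 1, a change of over 1.5 times in the fold. With so few cKO counts this SE is not a full measure of the uncertainty.

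Gm1976 was lowered in part. It had 121, 148 and 156 counts in the cKO libraries, against 406, 370 and 546 counts in control. Its levels were 5.55, 6.12 and 6.68 CPM in the cKO and 18.5, 16.2 and 17.6 CPM in control, and libraries of a group lie close together. The means were 6.12 ± 0.566 CPM in the cKO and 17.5 ± 1.15 CPM in control (SD, n = 3 each), a log2 fold change of -1.51 ± 0.15 (SE). Over summed counts the cKO was at 35.1% of control, with an exact 95% interval of 31.4% to 39.2%.

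Gm12892 was the only one of the 6 transcripts that was raised. It had 990, 1119 and 1151 counts in the cKO libraries, against 423, 630 and 810 counts in control. Its levels were 45.4, 46.3 and 49.3 CPM in the cKO and 19.3, 27.6 and 26.2 CPM in control. The means were 47.0 ± 2.03 CPM in the cKO and 24.4 ± 4.47 CPM in control (SD, n = 3 each), a log2 fold change of 0.95 ± 0.15 (SE). Its lowest cKO library is 1.64 times its highest control library, the narrowest gap of the 6, and control replicate 1 lies below the other control libraries.

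**Figure D1:**
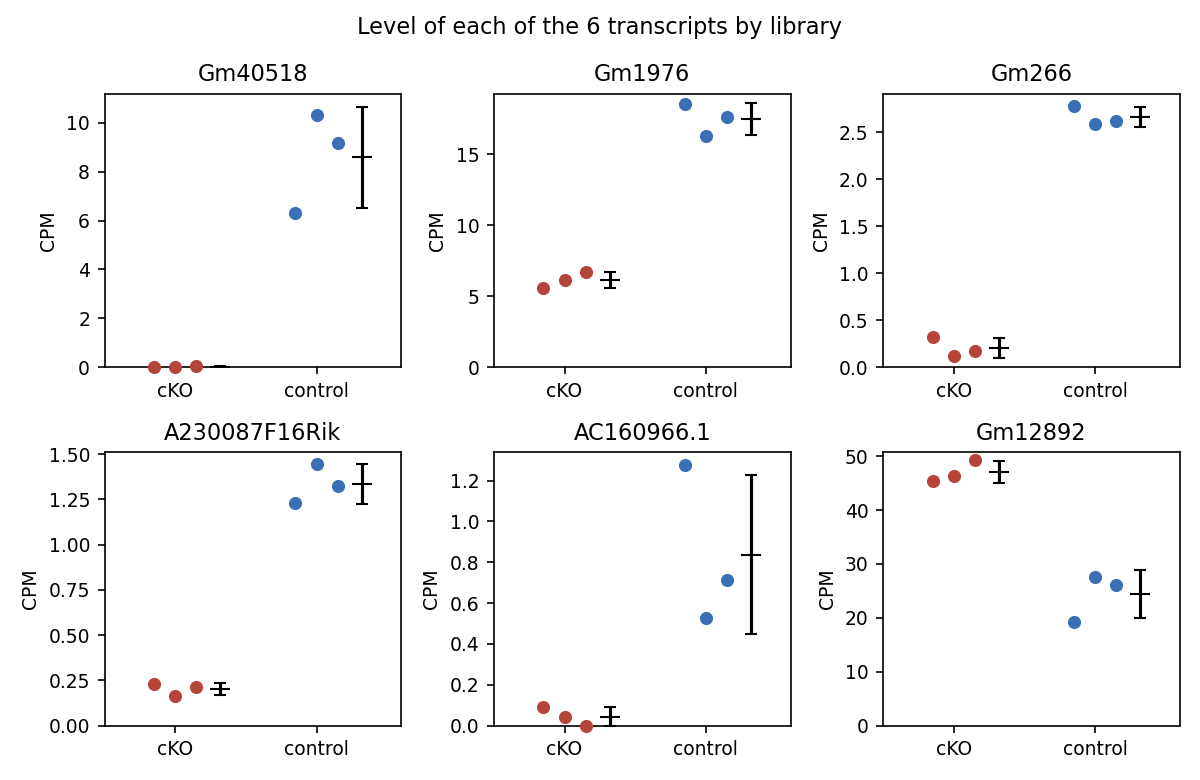
Level of each transcript in CPM (vertical axis, from 0) in the cKO libraries (red) and the control libraries (blue), with the mean and SD of each group as black bars. Gm40518 is at or near 0 in all 3 cKO libraries, Gm266, A230087F16Rik and AC160966.1 keep a few counts, Gm1976 keeps 35.1% of the control level, and Gm12892 is higher in each cKO library than in each control library.

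The groups do not overlap for 6 of 6 transcripts because they were chosen for it. Over all 17759 genes tested, 4.70% were lower in the cKO without overlap and 3.96% were higher without overlap. By edgeR with Benjamini-Hochberg adjustment over all genes, 4 genes were called lower, 0.0225% of those tested, and 0 were called higher, 0% of those tested. Gm40518, Gm1976 and Gm266 are among those 4, for which the same contrast was used in choosing them. The number lower was 0 without cKO replicate 3, 1 without control replicate 1, 2 or 3, 10 without cKO replicate 1 and 12 without cKO replicate 2. At an unadjusted edgeR p under 0.05, 549 genes (3.09%) were lower and 280 (1.58%) higher, and DESeq2 called 18 lower and 6 higher.

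Per length, the 6 transcripts span a wide range. Per kilobase of exon, Gm12892 was at 41.0 CPM in the cKO and 21.3 CPM in control, higher than 93.6% and 87.2% of 17462 genes with an exon length. Gm1976 was at 1.72 CPM per kilobase in the cKO and 4.92 in control, and Gm266 at 0.169 in the cKO and 2.19 in control. Gm40518 was at 0.00330 CPM per kilobase in the cKO and 1.99 in control, so in control it ranked with Gm266, higher than 37.9% and 40.0% of genes. The rarest in control were A230087F16Rik, at 0.0704 CPM per kilobase in the cKO and 0.463 in control, and AC160966.1, at 0.0191 in the cKO and 0.362 in control.

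**Figure D2:**
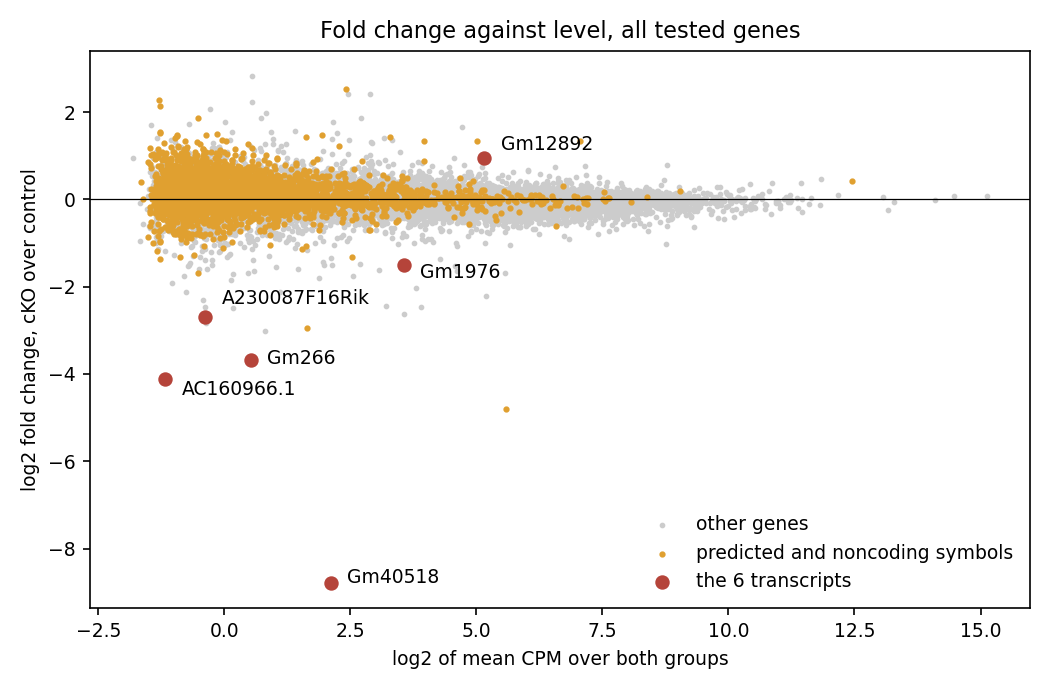
Log2 fold change of cKO over control (vertical axis) against the log2 of the mean CPM over both groups (horizontal axis) for 17759 genes, with predicted and noncoding symbols in orange and other genes in grey. The 6 transcripts (red) lie at the edge of the cloud for their level, with Gm40518 at -8.78 and Gm12892 at 0.95. They were chosen on this same contrast, so that place is a description only.

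Gm12892 is a copy of Ckb, the gene of brain-type creatine kinase, which regenerates ATP from phosphocreatine. The 1146 bases of Gm12892 align over their whole length with the coding part of the Ckb messenger RNA (bases 125 to 1270 of the transcript) at 96.8% identity, with 31 mismatches and 6 gap positions. The longest identical run is 250 bases, and 28.2% of the 50-base windows of Gm12892 occur unchanged in Ckb transcripts. The 120-base stretch with most differences is shown for both genes, because these letters are the ones by which a read can be placed. Capitals mark the 9 positions at which the pair differs, and the stretch is bases 344 to 463 of Gm12892 and 468 to 587 of the Ckb transcript.
Gm12892: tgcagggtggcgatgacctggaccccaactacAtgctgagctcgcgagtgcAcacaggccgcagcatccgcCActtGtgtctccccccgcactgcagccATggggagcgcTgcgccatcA
Ckb: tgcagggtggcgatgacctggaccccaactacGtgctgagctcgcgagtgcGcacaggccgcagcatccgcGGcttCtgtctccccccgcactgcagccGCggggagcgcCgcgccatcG

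Ckb was lower in each cKO library, opposite in direction to its pseudogene. Its levels were 296, 410 and 343 CPM in the cKO and 539, 539 and 513 CPM in control, with no overlap. The means were 349 ± 57.7 CPM in the cKO and 530 ± 14.8 CPM in control (SD, n = 3 each), a log2 fold change of -0.60 ± 0.14 (SE). Ckb was not called over all genes, with an edgeR adjusted p of 0.825 and a DESeq2 adjusted p of 0.0747. Of the counts that fall on either gene, Gm12892 took 13.3%, 10.1% and 12.6% in the cKO libraries and 3.46%, 4.88% and 4.85% in control. Together the pair was at 341, 457 and 392 CPM in the cKO and 558, 567 and 539 CPM in control. The sum was lower in each cKO library than in each control library. The read length and the treatment of reads with several matches are not given in the sources, so the split of reads within the pair is uncertain. Reads exchanged between Ckb and Gm12892 were not tested. Ckb was chosen after its values were seen.

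**Figure D3:**
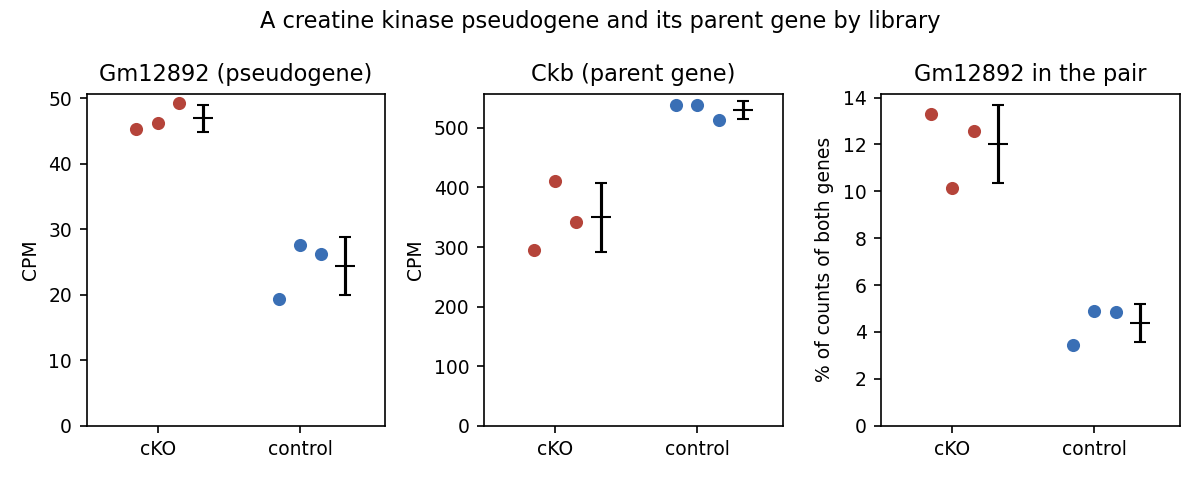
Levels of Gm12892 and of its parent gene Ckb in CPM, and the share of Gm12892 in the counts of both genes in percent (vertical axes, from 0), for cKO libraries (red) and control libraries (blue), with mean and SD as black bars. Gm12892 is higher and Ckb lower in each cKO library, and the share lies between 10.1% and 13.3% in the cKO and between 3.46% and 4.88% in control.

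Of the 5 lowered transcripts, 4 lie in pairs on chromosomes 9 and 12. A230087F16Rik and Gm266 are 190.6 kb apart, and Ckb lies 183.5 kb beyond Gm266. AC160966.1 and Gm40518 are 6.26 Mb apart. None of the 6 is on chromosome 13 with Kif2a or on chromosome 10 with Avil. Scn2b, the sodium channel beta subunit gene that is the other gene called by edgeR (adjusted p 0.0270), lies between AC160966.1 and Gm40518, 3.24 Mb from AC160966.1 and 3.00 Mb from Gm40518. Scn2b averaged 11.9 ± 1.95 CPM in the cKO and 37.3 ± 6.37 CPM in control (SD, n = 3 each). Its call was lost without control replicate 1, 2 or 3 (edgeR adjusted p 0.0654, 0.147 and 0.101). It was also lost without cKO replicate 3 (edgeR adjusted p 0.257) and in the fit with a replicate block (0.528). The calls of Gm1976 and Gm266 were lost in the same fits. The call of Gm40518 was lost without cKO replicate 3 and with the replicate block, but not without a control replicate.

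Most genes around the lowered transcripts overlapped between groups. Between AC160966.1 and Gm40518, 78 other genes were tested, of which 1 was called by edgeR, 5 were lower without overlap and 3 higher without overlap, where all genes tested had 4.70% and 3.96%. Those higher were Ift46, Hinfp and A730065G17Rik. The median of the 78 log2 fold change was 0.02, against 0.01 over all genes. Those lower without overlap were Scn2b, BC049352, Nectin1, C2cd2l and Cadm1, of which Nectin1, a cell adhesion protein, averaged 11.0 ± 1.68 CPM in the cKO and 19.4 ± 3.90 CPM in control (SD, n = 3 each; edgeR adjusted p 0.825). BC049352 was at 0.183, 0.331 and 0.471 CPM in the cKO and at 1.32, 0.571 and 1.29 CPM in control (edgeR adjusted p 0.953). Within 1 Mb of Gm266, 36 other genes were tested, of which 0 were called, 4 were lower without overlap and 2 higher without overlap. The lower ones were Ckb, Cinp, 2810029C07Rik and 5033406O09Rik, and the higher ones Xrcc3 and Gm17111. The counts within 1 Mb of A230087F16Rik were the same, with the same genes without overlap. It lies only 190.6 kb from Gm266, so this is largely the same stretch and not a second observation. Within 1 Mb of Gm40518 the split ran the other way, with 17 tested, 0 called, 2 lower (Nxpe2 and Cadm1) and 4 higher without overlap, and a median log2 fold change of 0.11. The 4 higher ones were Usp28, Tmprss5, Nxpe4 and A730065G17Rik. Around AC160966.1, 0 of 12 were lower and 1 higher without overlap, around Gm1976 0 of 3 were lower and 1 higher, and around Gm12892 1 of 8 was lower and 0 higher. Cinp, a protein of the DNA replication checkpoint, averaged 47.5 ± 4.01 CPM in the cKO and 62.4 ± 3.54 CPM in control (SD, n = 3 each; edgeR adjusted p 0.946). The 1 Mb distance and these genes were chosen after values were seen.

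None of the closest tested neighbours was called by edgeR. Nxpe4, A730065G17Rik and Gm20939 were higher in the cKO without overlap, and the groups overlapped for the other nearest tested genes. Nxpe4, which starts 3.06 kb beyond Gm40518 on the opposite strand, averaged 15.8 ± 2.34 CPM in the cKO and 13.1 ± 1.03 CPM in control (SD, n = 3 each; log2 fold change 0.27 ± 0.15, SE; edgeR adjusted p 0.9999). On the other side of Gm40518, the noncoding A730065G17Rik was at 0.532 ± 0.0409 CPM in the cKO and 0.402 ± 0.158 CPM in control (edgeR adjusted p 0.9999). Nxpe2, 159.0 kb from Gm40518 and inside the span of Nxpe4 on the opposite strand, averaged 9.14 ± 2.95 CPM in the cKO and 18.1 ± 1.63 CPM in control (SD, n = 3 each). The difference of -0.99 ± 0.22 (SE, log2) had an edgeR adjusted p of 0.825 and a DESeq2 adjusted p of 0.0301, and Nxpe2 was chosen after its values were seen. Sorl1, the sorting receptor gene nearest to AC160966.1 above it, was at -0.17 ± 0.15 on the log2 scale (edgeR adjusted p 0.9999). On its other side Gm28119 was at -0.12 ± 0.38 (edgeR adjusted p 0.9999). Around A230087F16Rik, Amn was at -0.07 ± 0.70 and Lbhd2 at -0.64 ± 0.34 (edgeR adjusted p 0.9999 for each). Lbhd2 averaged 1.40 ± 0.464 CPM in the cKO and 2.16 ± 0.618 CPM in control (SD, n = 3 each), with overlap, and had the largest log2 fold change in size of the nearest tested genes. Around Gm266, Tnfaip2 was at 0.03 ± 0.39 and the translation factor gene Eif5 at -0.10 ± 0.11 (edgeR adjusted p 0.9999 for each). Around Gm1976, the methyltransferase gene Mettl4 was at 0.10 ± 0.12 and Gm20939 at 0.32 ± 0.16 (edgeR adjusted p 0.9999 for each). The nearest tested genes to Gm12892 are far off, Rlf at 793.1 kb and Ppt1 at 826.9 kb, with log2 fold changes of 0.14 ± 0.11 and 0.04 ± 0.12 (edgeR adjusted p 0.9999 for each).

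**Figure D4:**
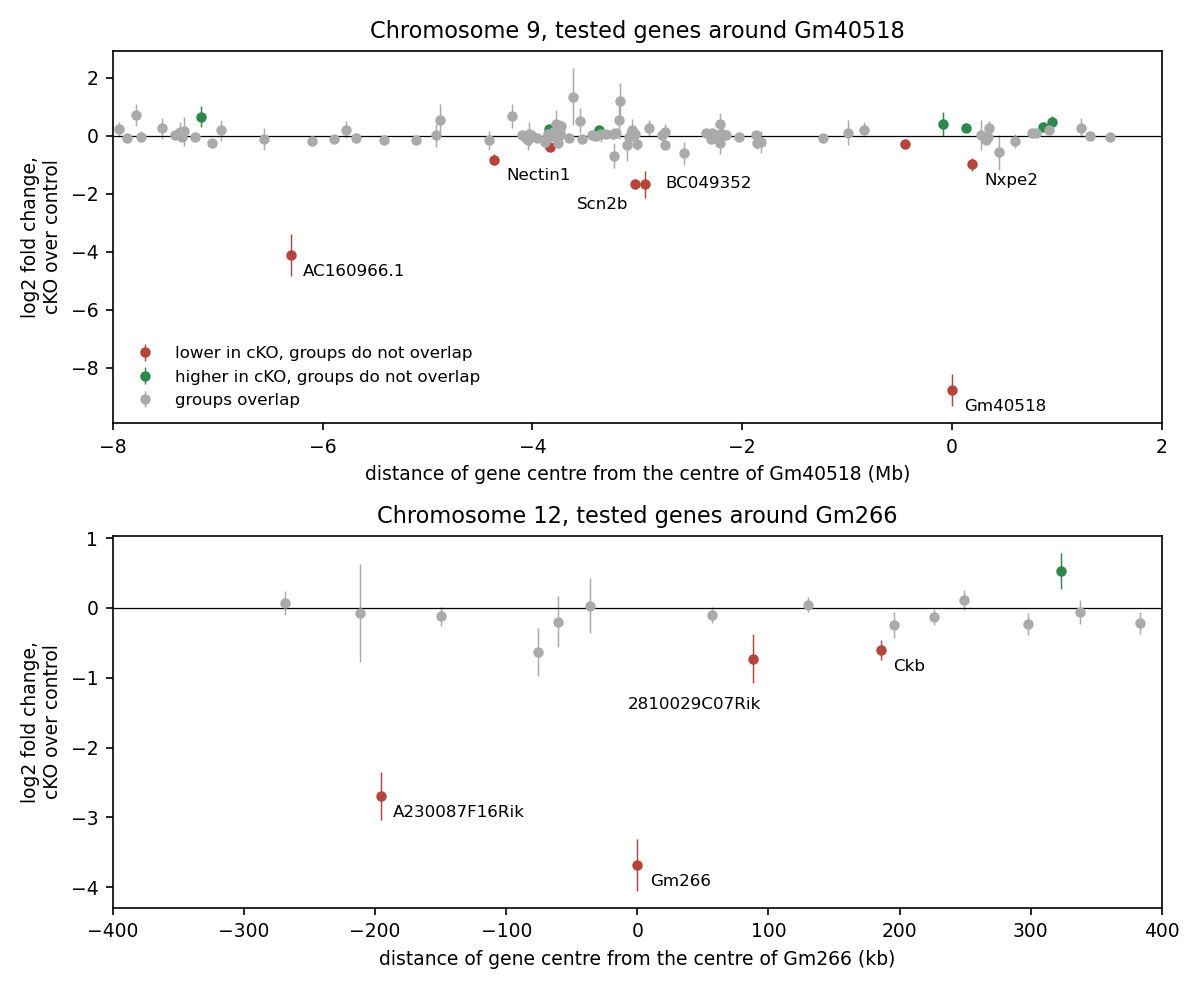
Log2 fold change of cKO over control with its SE (vertical axes) for tested genes by distance of their centre from that of Gm40518 on chromosome 9 (upper panel, Mb) and of Gm266 on chromosome 12 (lower panel, kb), with genes whose groups do not overlap in red (lower) or green (higher). AC160966.1 and Gm40518 above, and A230087F16Rik and Gm266 below, were chosen on this contrast and lie far under neighbours that are mostly near 0.

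Overlap with other genes differs between the transcripts. A230087F16Rik shares 1013 exonic bases with Cdc42bpb, a kinase gene on the opposite strand, and 34.1% of its 50-base windows are found there. Cdc42bpb itself averaged 37.2 ± 6.26 CPM in the cKO and 40.4 ± 2.56 CPM in control (SD, n = 3 each; edgeR adjusted p 0.9999). Gm1976 shares 80 exonic bases with the pseudogene 2700099C18Rik on the opposite strand, at 1.93 ± 0.122 CPM in the cKO and 1.498 ± 0.401 CPM in control (edgeR adjusted p 0.9999). AC160966.1 shares 121 exonic bases with Gm35940. Gm266 lies within the span of Gm40578 without shared exon bases. Gm40578 is annotated as an antisense RNA, but it is on the minus strand like Gm266, so it is not antisense to Gm266. Gm40578 had 1, 0 and 3 counts in the cKO libraries and 2, 3 and 7 in control. Whether counting used strand is not stated, so reads of A230087F16Rik and Cdc42bpb may not be fully told apart. Of the 50-base windows, 0.632% of those of Gm40518, 2.20% of those of Gm1976, 3.06% of those of AC160966.1 and 0% of those of Gm266 occur in transcripts of another gene.

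Genes whose levels across the 6 libraries are most like those of each transcript were ranked by Pearson r of log2 CPM among 15519 genes with a mean of at least 1 CPM. These values are a description, since any gene that separates the 2 groups will correlate with transcripts chosen for doing so. For Gm40518 they were Pik3ip1 (r = 0.993) and Gm14026 (r = 0.992), for Gm1976 the adrenergic receptor gene Adra2c (r = 0.984) and Gm14026 (r = 0.982), and for AC160966.1 Marchf9 (r = 0.989) and Adra2c (r = 0.971). Gm266 was closest to the peroxisomal enzyme gene Hsd17b4 (r = 0.988) and Htra4 (r = 0.977), and A230087F16Rik to Hsd17b4 (r = 0.997) and Pik3ip1 (r = 0.992). Gm12892 was closest to AC154200.1 (r = 0.984) and Swt1 (r = 0.982). Among these, Hsd17b4 was at 94.0% of control, Pik3ip1 at 85.9% and Adra2c at 77.6%, while Gm14026, also a processed pseudogene, was at 45.5%.

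Predicted and noncoding symbols were taken by form alone, as Gm and a number, an ending in Rik, or a clone name such as AC160966.1. The set therefore holds some protein-coding genes, such as 1500009C09Rik, and leaves out noncoding RNAs with given names, such as Neat1. Apart from the transcripts described here, such symbols numbered 2730 among the genes tested, and edgeR called 0 of them, 0% in either direction. At an unadjusted edgeR p under 0.05, 33 of them (1.21%) were lower and 112 (4.10%) higher. Groups did not overlap for 93 lower (3.41%) and 228 higher (8.35%), against 4.70% and 3.96% over all genes. Their median log2 fold change was 0.12, against 0.01 over all genes. Their median level was 1.14 CPM, against 15.2 CPM over all genes tested, so these shares compare sets of unlike level. The smallest p among the lower ones belonged to Gm14026, at 1.70, 1.74 and 2.05 CPM in the cKO and 3.65, 4.04 and 4.36 CPM in control (edgeR adjusted p 0.694). 1500009C09Rik, Gm16576, Gm47163 and Gm16364 followed, with log2 fold changes of -1.04, -0.98, -0.52 and -0.40 and edgeR adjusted p of 0.996 to 0.9999. Among the higher ones Gm28661, an unprocessed pseudogene, was at 4.77, 4.34 and 7.79 CPM in the cKO and 2.14, 2.76 and 1.23 CPM in control (adjusted p 0.825 in edgeR and 0.0433 in DESeq2). Gm13110, Gm45869, Gm32432 and Gm44769 followed at 1.19, 0.89, 1.02 and 0.79 on the log2 scale, with edgeR adjusted p of 0.843 to 0.9999.

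A list of 26 well-known long noncoding RNAs showed no call. Of 23 tested, 0 passed in edgeR and in DESeq2, 1 had an unadjusted edgeR p under 0.05, and 20 had a log2 fold change above 0, with a median of 0.23. Kcnq1ot1, the antisense RNA of an imprinted region, was at 61.3, 31.0 and 38.5 CPM in the cKO and 29.9, 29.4 and 26.7 CPM in control, with cKO replicate 1 well above the rest (edgeR adjusted p 0.9999). Neat1, the RNA scaffold of paraspeckles, was at 0.30 ± 0.16 on the log2 scale, Firre at 0.29 ± 0.16 and the miR-124 host Mir124a-1hg at 0.44 ± 0.25 (edgeR adjusted p 0.9999 for each).

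Marker genes of spinal cord and brain were also compared. Of 12 such markers 9 were tested, all 9 had negative log2 fold changes, with a median of -0.90, 6 had an unadjusted edgeR p under 0.05 and 0 were called by edgeR. The summed level of all 12 was 101 to 121 CPM in the cKO and 170 to 228 CPM in control, with none of the 12 at 0 throughout. Olig2, Mog and Gad2 had too few counts for the test, with 13, 20 and 9 summed counts in the cKO and 48, 43 and 42 in control. Of the 9, the groups overlapped for Slc1a2, Gfap, Olig1, Slc17a7 and Gad1. The groups did not overlap in the sum, of which Slc17a7, a glutamate transporter gene, made up 42.0% to 69.2% in the cKO and 29.9% to 63.8% in control. Without Slc17a7, a sum added after seeing the data, it was 37.1 to 67.9 CPM in the cKO and 69.7 to 160.0 CPM in control. The part of such tissue in the levels of the lowered transcripts was not tested. Whether cells of the ganglion itself express some of these markers, such as Slc17a7 and Gfap, was also not tested. The sums need not stand for spinal cord or brain tissue alone. Summed markers of lymphocytes (26.3 to 127 CPM in the cKO and 42.1 to 81.4 CPM in control), blood (756 to 3598 CPM in the cKO and 1576 to 3420 CPM in control), muscle (5.75 to 291 CPM in the cKO and 49.7 to 191 CPM in control) and endothelium (99.2 to 151 CPM in the cKO and 90.2 to 113 CPM in control) overlapped between groups. Of 10 lymphocyte markers tested, 9 had log2 fold changes above 0, with a median of 0.55, and 0 were called by edgeR. Above 0 were also 4 of 6 tested endothelial, 3 of 7 blood and 3 of 5 muscle markers, with 0 called. The endothelial gene Slco1a4 was higher in the cKO without overlap (edgeR adjusted p 0.9999). In bulk tissue, fewer cells of a type and less RNA per cell cannot be told apart.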

How the data were processed

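Poly(A) RNA was sequenced from 3 cKO and 3 control samples. The authors deposited 1 table with raw counts, normalized signal and regularized log2 values per gene, per the file headers. Only the deposited counts were used here. Per the submitters' processing notes, tools were STAR, cutadapt and DESeq2 with the mm10 build. Groups and replicate numbers came from the titles.

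The test was edgeR 4.0.16 (R 4.3.3), with filterByExpr (minimum count 10), TMM scaling, a robust quasi-likelihood fit without covariates, and a Benjamini-Hochberg adjusted p under 0.05 over all genes. CPM use TMM-scaled totals, SEs come from the F statistic, and log2 correlations use a prior count of 2. The fit was tested on simulated data whose fold changes were smaller than those of Gm40518, Gm266, A230087F16Rik and AC160966.1. That simulation does not cover differences of that size. Exact 95% intervals are Clopper-Pearson limits on summed counts. GENCODE M21 gave a position for 17462 of 17759 tested genes by symbol. DESeq2 1.42.0, limma 3.58.1, other scalings and filters, a replicate block and each library left out were alternatives.

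The transcripts, lists and rules were chosen with earlier results of these data known. The naming rule takes the 6 transcripts, Kif2a, Avil, overlapping and nearest tested genes and 2 most similar genes each. It also takes 5 other predicted and noncoding symbols each way and 4 known noncoding RNAs. Further genes in the text were picked with their values in view.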

Additional observations from a re-analysis of the deposited data

How the results depend on the processing

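The direction of all 6 transcripts was the same under each alternative that could be fitted, which follows from their choice. With each library left out in turn, log2 fold changes ranged from -10.71 to -8.30 for Gm40518, -4.12 to -3.41 for Gm266, -2.77 to -2.56 for A230087F16Rik, -4.99 to -3.56 for AC160966.1, -1.57 to -1.44 for Gm1976 and 0.80 to 1.05 for Gm12892. A prior count of 4 gave -5.61 for Gm40518, -2.94 for Gm266, -2.03 for A230087F16Rik and -2.26 for AC160966.1; a prior count of 2 was added after seeing the data. At a mean of at least 1 CPM, A230087F16Rik and AC160966.1 were not tested. DESeq2 called 18 genes lower and 6 higher, with 2 predicted and noncoding symbols among the higher ones, against 4, 0 and 0 in edgeR. Without 1 library, the genes called lower numbered 0 to 12 and the genes called higher 0 to 2. The predicted and noncoding symbols called lower, a set defined by symbol form, numbered 0 to 4, against 3 with all libraries. In these fits 0 genes were called lower without cKO replicate 3 and 1 without each control replicate in turn. Without cKO replicate 1 the number was 10, and without cKO replicate 2 it was 12. In the fit with a replicate block, 0 genes were called lower, and so 0 predicted and noncoding symbols. Same-numbered libraries correlated at -0.152, -0.247 and -0.13 in their deviations from group means, which gives no sign that the numbers pair the samples. With 3 libraries per group these values cannot exclude a pairing. The cause of the lost calls was not tested. Depth limits Gm40518 and AC160966.1 most, since 1 and 3 counts make up their cKO levels.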
